A study of Mus musculus with 6 samples.

Results

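Genes were sought whose expression in stable induced regulatory T cells (iTreg) lay outside the range of both other populations recovered from the same mice. Those populations were natural regulatory T cells (nTreg) and former iTreg cells without the Foxp3 reporter (ex-iTreg). A gene was counted as set apart when both iTreg arrays lay above, or both below, all 4 other arrays. In addition, the difference of the iTreg mean from the equally weighted mean of the other 2 populations had to pass an adjusted p of 0.05 in limma. Of 11019 genes tested, 2582 met both conditions, 1566 of them higher in iTreg and 1016 lower.

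All 6 arrays were made from CD4-stained T cells recovered from BALB/c Rag1-/- mice, which lack T and B cells of their own. Every host had received wild-type nTreg cells together with 500000 wild-type iTreg cells made in culture. Spleen and mesenteric lymph node cells were taken 125 days later from 14 such hosts, pooled, and separated on a flow cytometer. iTreg cells carried EGFP, which reports Foxp3, and Thy1.1, an allelic mark of the transferred induced cells. nTreg cells were EGFP-positive without Thy1.1, and ex-iTreg cells had Thy1.1 but no EGFP. Each population gave 2 replicate pools, each hybridised to 1 Affymetrix Mouse430_2 array. Whether paired pools held different mice is not recorded in the labels, and p-values therefore reflect pool-to-pool spread alone, possibly of technical origin. Because hosts are lymphopenic and cells of many mice were pooled, no value belongs to a single animal.

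Regulatory T cells restrain immune responses and are defined by the transcription factor Foxp3. Natural ones acquire it in the thymus, whereas induced ones acquire it when conventional CD4 T cells are activated in the presence of TGF-beta. Induced cells can lose Foxp3 after transfer and then resemble effector T cells. A gene that follows origin or reporter alone runs in a single order from nTreg through iTreg to ex-iTreg. The genes sought here are those in which iTreg values stood beyond both other populations, by a small margin from one of them in many cases.

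Values are log2 expression, so a difference of 1 is a 2-fold change, and differences are given ± the standard error of the limma fit with n = 2 arrays per group. Array medians lay between 5.47 and 5.49, and Pearson's r over probe sets was 0.9957 to 0.9972 within groups and 0.9563 to 0.9787 between them. Defining T cell markers were present in all arrays, with a mean log2 level over 13 markers of 11.24 and 11.22 in nTreg, 11.40 and 11.43 in iTreg, and 11.48 in both ex-iTreg pools. Foxp3 itself gave 3.99 to 4.29 in these arrays, under the level of 5.48 needed for testing, so its probe set does not check the sort. Il2ra, which encodes CD25, a receptor chain for IL-2, read 10.06 and 9.98 in nTreg, 9.95 in both iTreg pools, and 6.69 and 6.84 in ex-iTreg, which separates ex-iTreg from both reporter-positive populations but not iTreg from nTreg. In bulk samples, a different share of cells and a different amount of RNA per cell cannot be told apart.

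Across all genes tested, 2367 (21.5%) had both iTreg values above all others and 1530 (13.9%) had both below, before any test. The contrast of iTreg with the mean of both others passed for 1996 genes (18.1%) upward and 1399 (12.7%) downward. Pattern and test together left 14.2% of genes set apart higher and 9.22% set apart lower. A stricter rule, which also required an adjusted p under 0.05 against each population separately, kept 743 genes (6.74%) higher and 463 (4.2%) lower. Most set-apart differences were small. For the gene's smaller difference, that is the smaller of its differences from nTreg and from ex-iTreg, the median was 0.25 among higher genes and -0.24 among lower genes, and it reached 1 log2 unit for 19 higher and 10 lower genes. At the edge of the pattern, Ebpl lay inside by 3e-04 and Cep19 outside by the same amount on the higher side, while Rbm8a lay inside by 2e-04 and Ipo7 outside by 1e-05 on the lower side. By probe set in place of gene, 2974 of 23484 (12.7%) were set apart higher and 2677 (11.4%) lower. Treating nTreg and ex-iTreg as 1 group of 4, so that their own difference enters the spread, left 117 genes higher and 65 lower. Centring each array on its T cell receptor genes changed the share of set-apart genes that were higher from 60.7% to 76.7%, with 1948 higher and 591 lower. Leaving out iTreg pool 1 left 813 and 547 genes, leaving out iTreg pool 2 left 673 and 444, and leaving out ex-iTreg pool 2 left 997 and 656. With 2 arrays against 4, the smallest two-sided p of an exact permutation test is 0.133, and every call here depends on limma's pooling of the spread over groups and probe sets.

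Outside the lists of markers for other cell types, the gene set furthest above was Sh3bgrl2, which encodes a small thioredoxin-fold protein, on chromosome 9. It read 6.69 and 6.67 in nTreg, 9.56 and 9.39 in iTreg, and 7.64 and 7.79 in ex-iTreg. Its iTreg mean lay 2.27 ± 0.07 above the mean of the others (adjusted p = 6.97e-05), and the populations did not overlap. Tgm2, which encodes tissue transglutaminase, a protein-crosslinking enzyme, read 8.57 and 8.30 in nTreg, 10.36 and 10.30 in iTreg, and 8.71 and 8.48 in ex-iTreg. Here nTreg and ex-iTreg overlapped, while iTreg stood 1.82 ± 0.10 above them (adjusted p = 0.000265). The 4 other probe sets of Tgm2 were set apart in the same direction.

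Further genes of this upper group have various roles. Cnn3, an actin-binding calponin, read 5.67 and 5.17 in nTreg, 6.75 and 6.64 in iTreg, and 5.59 and 5.56 in ex-iTreg. Postn, the matricellular protein periostin, read 6.12 and 6.25 in nTreg, 7.26 and 7.14 in iTreg, and 4.97 and 4.94 in ex-iTreg, the last under the filter level. Enah, an actin regulator, read 5.70 and 5.49 in nTreg, 6.67 and 6.64 in iTreg, and 4.17 and 4.49 in ex-iTreg, the last under the filter level, and its other tested probe set was not called (0.18 ± 0.13, adjusted p = 0.34). Among enzymes and kinases, Nuak2, a relative of AMP-activated kinase, read 7.23 and 7.20 in nTreg, 8.31 and 8.22 in iTreg, and 6.39 in both ex-iTreg pools. Cyp26b1, which degrades retinoic acid, read 5.89 and 6.27 in nTreg, 7.12 and 7.17 in iTreg, and 5.86 and 5.87 in ex-iTreg. Ampd1, an AMP deaminase, read 4.57 and 4.79 in nTreg, 5.68 and 5.67 in iTreg, and 4.73 and 4.38 in ex-iTreg, and passed the filter through the iTreg arrays alone. Rcn1, a calcium-binding protein of the endoplasmic reticulum, was 1.03 ± 0.07 higher (adjusted p = 0.000341).

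Also among the 15 set furthest above were 4 genes known from myeloid cells that stood in no marker list. Gpr34, a receptor of macrophages and mast cells, read 6.72 and 6.51 in nTreg, 7.99 and 7.88 in iTreg, and 6.49 and 6.88 in ex-iTreg. Fcna, the ficolin made by macrophages, read 7.33 and 7.22 in nTreg, 8.89 and 8.88 in iTreg, and 8.06 and 7.86 in ex-iTreg. Adgre4, a macrophage adhesion receptor, and Clec4a3, a C-type lectin of myeloid cells, were 1.33 ± 0.13 and 1.06 ± 0.18 higher (adjusted p = 0.00126 and 0.00718), Clec4a3 with both other means under the filter level. The levels of macrophage markers, which were also highest in iTreg, are given with the macrophage list. Their part in these 4 values, in Tgm2 and in the other genes of the 15 was not tested. Absence from the marker lists does not assign a gene to T cells.

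**Figure D1:**
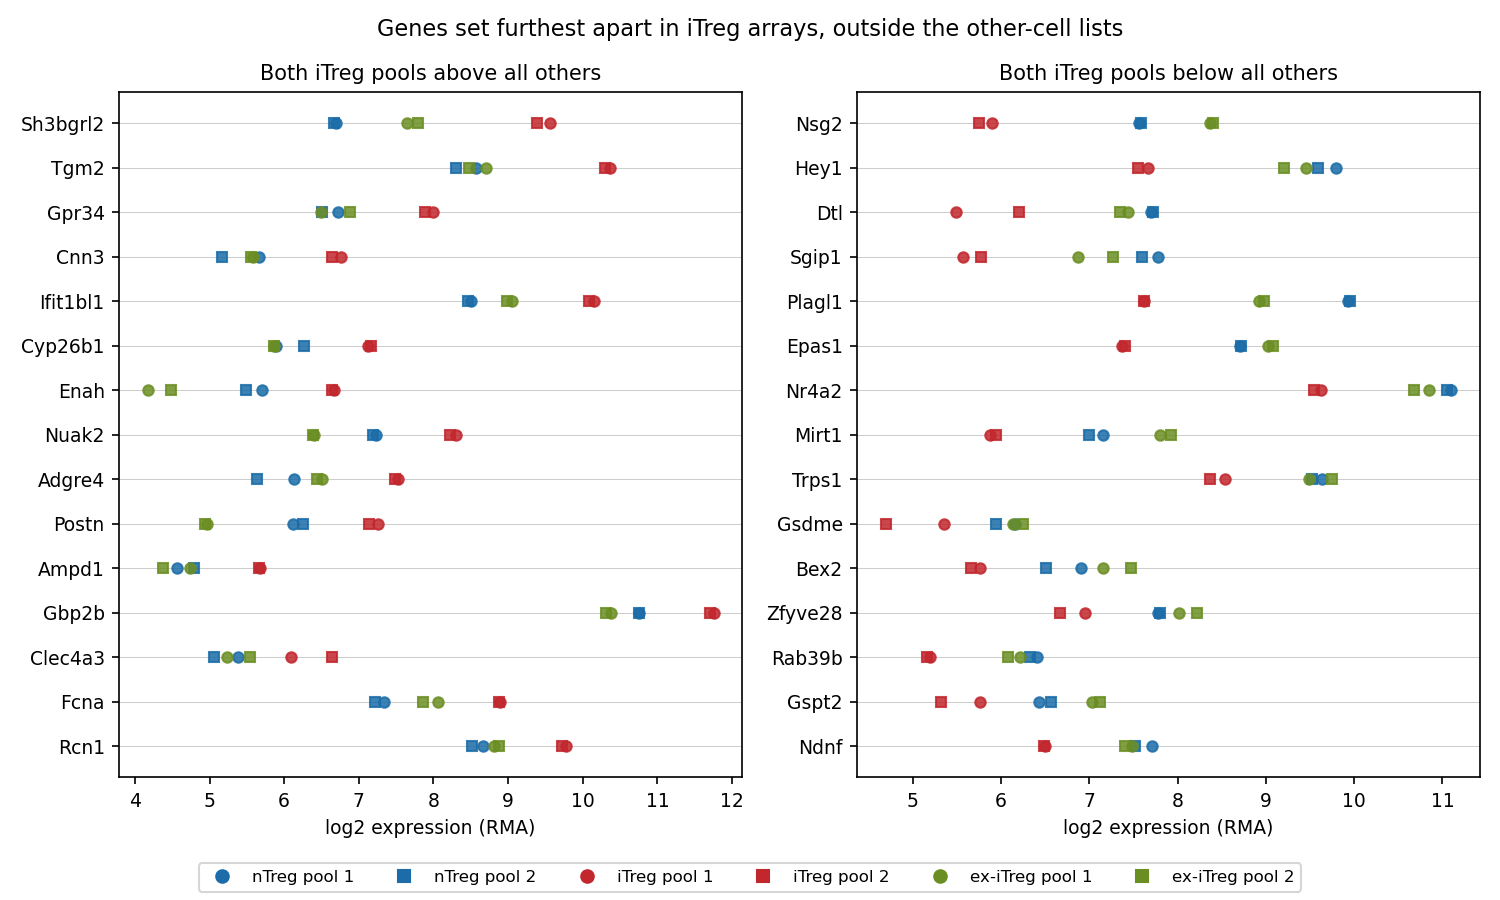
Log2 expression (RMA, horizontal axis) of the 15 genes set furthest above (left) and below (right) in iTreg arrays, outside the lists of other cell types; each point is 1 array, coloured by population and shaped by pool. In every row both red iTreg points lie beyond all 4 others, while the order of nTreg and ex-iTreg differs from gene to gene: for Sh3bgrl2 ex-iTreg lies above nTreg, and for Postn and Enah below.

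Downward, Nsg2, a vesicle-trafficking gene expressed in naive T cells, was set furthest apart. It read 7.57 and 7.58 in nTreg, 5.89 and 5.75 in iTreg, and 8.37 and 8.40 in ex-iTreg, a difference of -2.15 ± 0.06 from the mean of both (adjusted p = 6.97e-05). Hey1, a transcriptional repressor and Notch target, read 9.79 and 9.59 in nTreg, 7.67 and 7.55 in iTreg, and 9.45 and 9.20 in ex-iTreg. Both genes were thus low in iTreg alone, and for Hey1 ex-iTreg differed from nTreg by -0.37 ± 0.11.

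Other transcription factors followed the same direction. Plagl1, an imprinted zinc-finger factor, read 9.93 and 9.95 in nTreg, 7.62 in both iTreg pools, and 8.93 and 8.98 in ex-iTreg. Epas1, the oxygen-regulated factor HIF-2alpha, read 8.71 and 8.72 in nTreg, 7.37 and 7.40 in iTreg, and 9.03 and 9.08 in ex-iTreg. Nr4a2, an orphan nuclear receptor induced by antigen receptor signalling, read 11.10 and 11.05 in nTreg, 9.62 and 9.55 in iTreg, and 10.85 and 10.68 in ex-iTreg. In each of the 3, the iTreg pools agreed closely and lay at least 1 log2 unit below either population. Trps1, a GATA-type repressor, was 1.14 ± 0.09 lower on the same scale (adjusted p = 0.000744).

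Dtl, the substrate receptor of a ubiquitin ligase that acts in S phase, read 7.70 and 7.72 in nTreg, 5.49 and 6.21 in iTreg, and 7.44 and 7.35 in ex-iTreg. Sgip1, an endocytic adaptor, read 7.78 and 7.60 in nTreg, 5.57 and 5.77 in iTreg, and 6.87 and 7.27 in ex-iTreg. The 2 iTreg pools differed more for Dtl than for the transcription factors, without reaching the other arrays. The remaining genes of the 15 were Mirt1, a long noncoding RNA, Gsdme, which encodes a pore-forming gasdermin, Bex2, Zfyve28, Rab39b, Gspt2, a translation termination factor, and Ndnf, with differences from -1.56 ± 0.07 for Mirt1 to -1.03 ± 0.07 for Ndnf. The iTreg means of Gsdme and Rab39b lay under the filter level.

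Genes were then separated by what they are known to mark. Of 281 tested genes in T cell lists, 52 (18.5%) were set apart higher and 47 (16.7%) lower. Of 168 tested genes that mark macrophages, erythroid cells or other cell types, 87 (51.8%) were higher and 4 (2.38%) lower. Another 3 genes stood in both kinds of list, of which Fcer1g and Tyrobp, adaptors of Fc and NK receptors, were higher. Function lists held 276 other tested genes, with 72 (26.1%) higher and 26 (9.42%) lower, and genes in no list gave 13.1% and 9.12%. T cell genes were thus divided nearly evenly between directions, whereas called genes of other cell types lay almost wholly on the higher side.

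**Figure D2:**
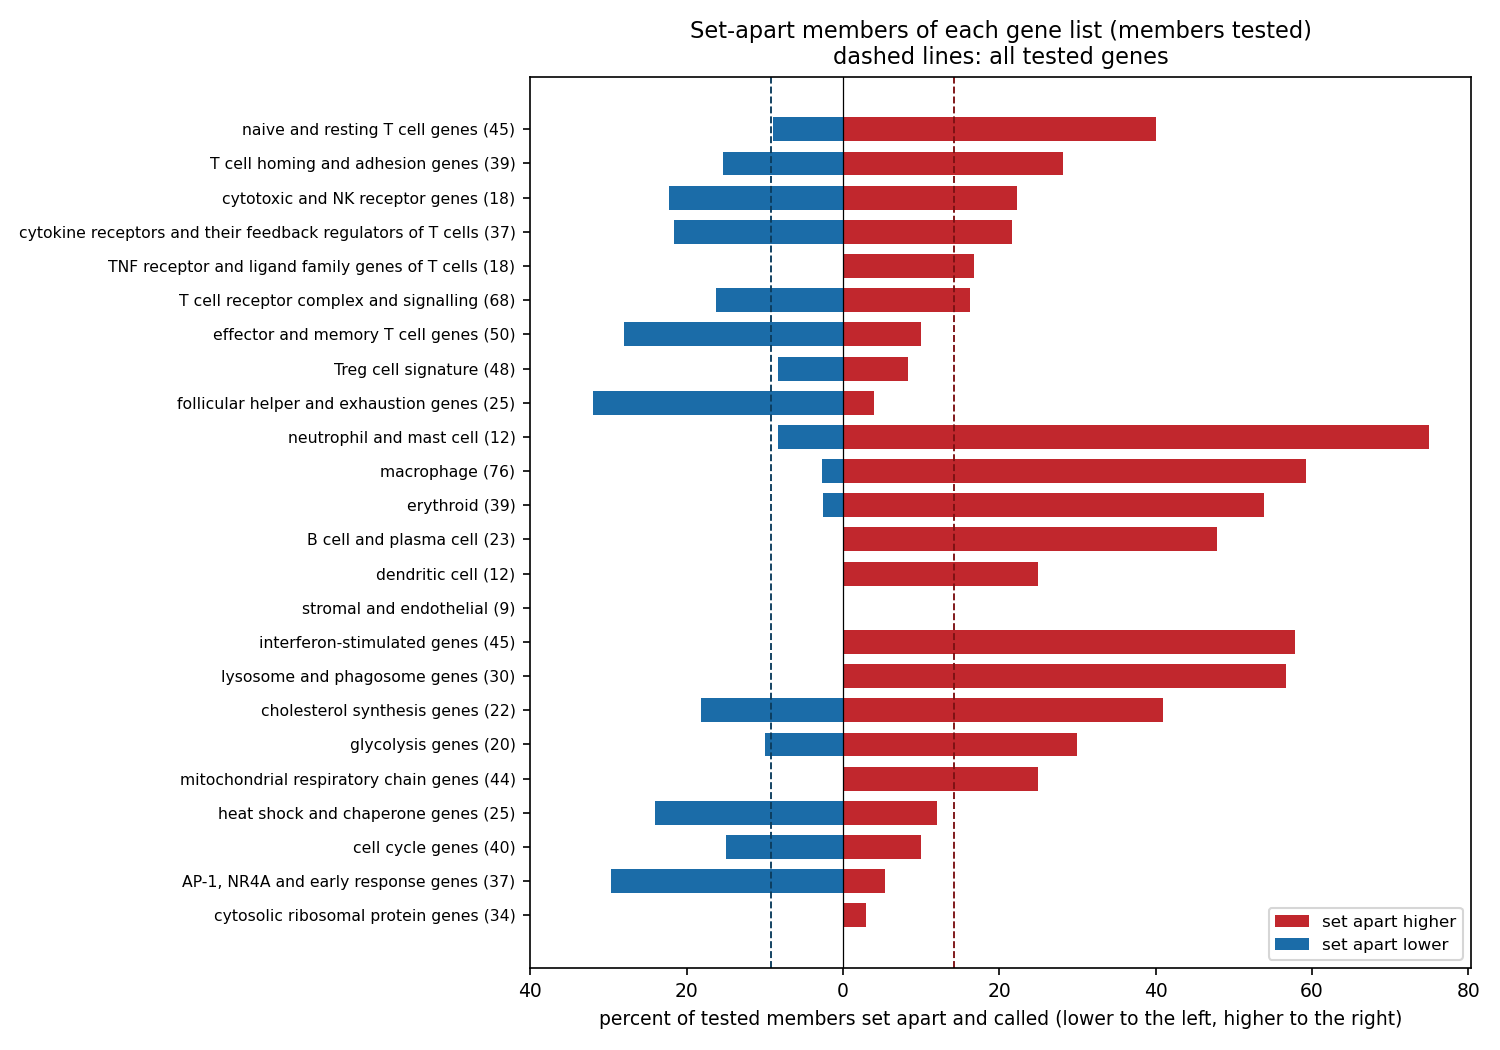
Percent of the tested members of each gene list that were set apart and called, higher to the right (red) and lower to the left (blue), with the number tested in parentheses; dashed lines mark 14.2% and 9.22% over all tested genes. The neutrophil and mast cell bar is the longest to the right (75%), the macrophage, erythroid, interferon and lysosome bars also reach over 50%, and the longest bars to the left belong to the follicular helper, early response and effector lists.

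Of 48 tested genes of the regulatory T cell signature, 4 were set apart higher and 4 lower (8.33% each). The median difference of the list was 0.36 from the mean of both others, but it was -0.46 from nTreg and 1.14 from ex-iTreg, so that at the median iTreg lay between the other populations. Gpr83, a receptor of regulatory T cells, read 9.92 and 9.95 in nTreg, 10.26 and 10.25 in iTreg, and 6.66 and 6.78 in ex-iTreg. Socs2, a feedback inhibitor of cytokine signalling, read 11.24 and 11.19 in nTreg, 11.60 and 11.67 in iTreg, and 9.98 and 9.89 in ex-iTreg. For both genes the excess over nTreg was small (0.32 and 0.42) beside that over ex-iTreg (3.54 and 1.70). Entpd1, the ectonucleotidase CD39, and Samhd1 met the pattern but did not pass against nTreg alone (adjusted p = 0.084 and 0.50). Neither other tested probe set of Entpd1 was set apart and called, and 1 of them placed iTreg 1.21 below nTreg (adjusted p = 0.000133), whereas 2 of the 4 other probe sets of Samhd1 passed against nTreg. Without iTreg pool 2, 7 signature genes were set apart higher, and with nTreg and ex-iTreg as 1 group, 0 higher and 1 lower call were left in limma.

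On the lower side of the signature, besides Plagl1 and Epas1, Rora, a nuclear receptor of tissue T cells, read 12.48 and 12.47 in nTreg, 11.32 and 11.25 in iTreg, and 11.81 and 11.82 in ex-iTreg. Icos, a costimulatory receptor, lay 0.32 ± 0.06 below the mean of both, and did not pass against ex-iTreg (adjusted p = 0.26). Neither of its 2 other tested probe sets was set apart, with differences from ex-iTreg of 0.14 and -0.055 that were not called. Ctla4, Ikzf2, which encodes Helios, and Il10 were not set apart: in each, the iTreg values lay between nTreg and ex-iTreg, for Ikzf2 at 11.81 and 11.77 against 12.97 and 13.06 in nTreg and 9.53 and 9.48 in ex-iTreg. Among T cell markers, Cd4 and Cd3e were not set apart. Thy1, whose allelic form was part of the sort, read 11.48 and 11.49 in nTreg, 12.13 and 12.28 in iTreg, and 11.85 and 11.87 in ex-iTreg.

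Naive and resting T cell genes were set apart higher in 18 of 45 tested (40%) and lower in 4 (8.89%). The list's median difference was 0.22, against 0.03 over all genes. It was 0.485 from nTreg but only 0.054 from ex-iTreg. Of the 18 higher genes, 11 passed against each population separately. Treml2, a costimulatory receptor, read 7.78 and 7.67 in nTreg, 9.18 and 9.34 in iTreg, and 8.78 and 8.68 in ex-iTreg. Il6ra, the IL-6 receptor chain, read 8.44 and 8.17 in nTreg, 9.73 and 9.80 in iTreg, and 9.34 and 9.26 in ex-iTreg, and Als2cl had the same order at 1.00 ± 0.07. In these 3 genes ex-iTreg lay closer to iTreg than to nTreg. The other tested probe set of Il6ra was not set apart. Atp1b1, a sodium pump subunit, was 0.82 ± 0.08 higher.

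Of these 18 higher genes, 11 were also called higher in ex-iTreg than in nTreg and 2 lower; of all 45 tested members, ex-iTreg was called higher than nTreg in 30 and lower in 5. On the lower side stood Nsg2, Myb, a factor of progenitor and memory T cells, Smad7, an inhibitor of TGF-beta signalling, and Il7r, the IL-7 receptor chain. Myb read 9.49 and 9.48 in nTreg, 8.38 and 8.26 in iTreg, and 8.71 in both ex-iTreg pools. Il7r fell short of a call against nTreg (-0.05, adjusted p = 0.63), while its other tested probe set passed against nTreg (-0.32, adjusted p = 0.0227) and ex-iTreg (-0.41, adjusted p = 0.00752). With nTreg and ex-iTreg as 1 group, 2 of the 18 higher calls and 1 of the 4 lower calls were left, and 2 lower calls without iTreg pool 1.

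Effector and memory T cell genes showed the opposite balance, with 14 of 50 tested (28%) set apart lower and 5 (10%) higher, and a median difference of -0.35. Gzmk, a granzyme, read 7.12 and 7.20 in nTreg, 6.80 and 6.60 in iTreg, and 10.43 and 10.38 in ex-iTreg. Ccl5, a chemokine of effector cells, read 10.67 and 10.61 in nTreg, 10.11 and 10.06 in iTreg, and 12.61 in both ex-iTreg pools. Both genes were high in ex-iTreg, and their distance below nTreg was 0.46 and 0.55 log2 units. Id2, an inhibitor of E proteins in effector cells, read 11.79 and 11.80 in nTreg, 11.11 and 10.98 in iTreg, and 12.23 and 12.36 in ex-iTreg. Cd44, the adhesion receptor used to mark antigen-experienced cells, read 11.41 and 11.37 in nTreg, 10.94 in both iTreg pools, and 11.57 in both ex-iTreg pools. Il1r2, the decoy IL-1 receptor, had another order, with 10.47 and 10.32 in nTreg, 8.96 and 9.05 in iTreg, and 9.45 and 9.37 in ex-iTreg. Of the 14 lower genes, 10 were called higher in ex-iTreg than in nTreg and 1 lower. Among all 50 tested members, 26 were called higher and 18 lower. The list's median difference was -0.126 from nTreg and -0.513 from ex-iTreg. Of the 14, 12 passed against each population separately.

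Among the effector genes that were higher, Il12rb1, a shared IL-12 and IL-23 receptor chain, read 7.39 and 7.26 in nTreg, 8.03 and 8.20 in iTreg, and 6.74 in both ex-iTreg pools. Prf1, which encodes perforin, read 6.52 and 6.53 in nTreg, 7.37 and 7.33 in iTreg, and 7.12 and 7.01 in ex-iTreg. The high and low members of the list thus included cytotoxic genes in both directions: perforin was higher while Gzmk and Nkg7, a cytotoxic granule protein (-0.90 ± 0.05), were lower. As 1 group of 4, nTreg and ex-iTreg left 1 of the 14 lower calls and 0 of the 5 higher calls in limma, and without nTreg pool 1 there were 8 higher calls.

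Follicular helper and exhaustion genes were set apart lower in 8 of 25 tested (32%) and higher in 1 (4%), with a median difference of -0.32. Bcl6, the lineage factor of follicular helper cells, read 8.47 and 8.48 in nTreg, 7.69 and 7.80 in iTreg, and 9.30 and 9.26 in ex-iTreg. Its second, dimmer probe set was not set apart. Tox2, an HMG-box factor, read 10.08 and 10.09 in nTreg, 9.46 and 9.26 in iTreg, and 11.28 and 11.12 in ex-iTreg. Cxcr5, the follicle-homing receptor, was 0.44 ± 0.06 lower (adjusted p = 0.00318). For these 3 genes ex-iTreg was the highest population and iTreg the lowest. The call rule kept 2 of the 8 lower genes when nTreg and ex-iTreg formed 1 group; without iTreg pool 2, 3 genes were higher.

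Genes of the T cell receptor complex and its signalling were set apart higher in 11 of 68 tested (16.2%) and lower in 11 (16.2%), a share close to that of all genes upward. Runx1, a partner of Foxp3, read 7.20 and 7.19 in nTreg, 8.83 and 8.88 in iTreg, and 8.28 and 8.41 in ex-iTreg, but none of its 5 other tested probe sets was set apart and called. Ubash3a and Sla2, inhibitors of receptor signalling, were 0.41 ± 0.06 and 0.49 ± 0.05 higher, and Cd7 was 0.45 ± 0.06 higher. Trat1, a receptor-associated adaptor, read 10.26 and 10.20 in nTreg, 9.63 and 9.54 in iTreg, and 10.57 and 10.72 in ex-iTreg. Malt1, the protease that links the receptor to NF-kappaB, read 11.21 and 11.20 in nTreg, 10.81 and 10.88 in iTreg, and 11.78 and 11.79 in ex-iTreg. Cd96 and Rnf128, a ubiquitin ligase linked to anergy, were also lower. As 1 group, nTreg and ex-iTreg left 0 of the 11 calls in each direction in limma. Leaving out iTreg pool 1 left 6 in each direction, iTreg pool 2 left 5 lower, and either ex-iTreg pool left 7 higher; centring on this list left 7 lower.

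Cytokine receptors and their feedback regulators gave 8 higher and 8 lower of 37 tested (21.6% each). Besides Socs2, Il12rb1 and Il6ra, Stat6, the IL-4 signal transducer, was 0.47 ± 0.06 higher (adjusted p = 0.00323). Il6st met the rule (0.25 ± 0.07) but not the test against ex-iTreg alone (adjusted p = 0.067), and lost its call in 7 of 15 alternatives. On the lower side, Il21r read 9.13 and 8.89 in nTreg, 8.38 and 8.53 in iTreg, and 9.04 and 8.92 in ex-iTreg. Il18r1 read 12.04 in both nTreg pools, 11.64 and 11.66 in iTreg, and 12.20 and 12.27 in ex-iTreg. Its partner Il18rap was 0.46 ± 0.12 lower, but did not pass against ex-iTreg alone (adjusted p = 0.13) and lost its call in 7 of 15 alternatives; its other tested probe set passed against both populations. Il1rl2, the IL-36 receptor chain, read 6.78 and 6.73 in ex-iTreg, and below the filter level in the 4 other arrays, so its place below nTreg rests on dim values.

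T cell homing and adhesion genes were set apart higher in 11 of 39 tested (28.2%) and lower in 6 (15.4%). Selplg, the selectin ligand PSGL-1, read 11.36 and 11.40 in nTreg, 11.84 and 11.81 in iTreg, and 11.16 and 11.02 in ex-iTreg. Itgb7, the beta chain of gut-homing integrins, and Itga6 were 0.42 ± 0.05 and 0.56 ± 0.06 higher, while Itgb1, the common beta-1 chain, was lower at 9.72 and 9.55 against 9.90 and 9.91 in nTreg and 10.41 and 10.47 in ex-iTreg. Integrin chains therefore stood apart in both directions. Gpr18 was 0.59 ± 0.07 higher, with nTreg and ex-iTreg overlapping. Of TNF receptor and ligand genes, 3 of 18 (16.7%) were higher and 0 lower; at an adjusted p under 0.05 in the limma contrast without regard to overlap, 9 were higher and 3 lower, as at an unadjusted p. Tnfrsf1a, the type 1 TNF receptor, read 8.72 and 8.75 in nTreg, 9.68 and 9.74 in iTreg, and 9.25 and 9.18 in ex-iTreg. Cytotoxic and NK receptor genes gave 4 of 18 (22.2%) in each direction, and Ctla2b, a protease inhibitor of activated T cells, was the lower one with the largest smaller difference, at 8.31 and 8.03 in iTreg against 8.98 and 8.96 in nTreg and 9.72 and 9.78 in ex-iTreg.

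Interferon-stimulated genes were set apart higher in 26 of 45 tested (57.8%) and lower in 0, with a median difference of 0.37; by the limma contrast alone 31 were higher and 0 lower, and at an unadjusted p under 0.05, 32 and 0. Gbp2, an interferon-induced GTPase, read 10.37 and 10.19 in nTreg, 11.33 and 11.16 in iTreg, and 10.41 and 10.42 in ex-iTreg. Usp18, which removes ISG15 and restrains interferon signalling, read 8.81 and 8.70 in nTreg, 9.66 and 9.63 in iTreg, and 8.91 and 8.85 in ex-iTreg. Ifit1, a sensor of foreign RNA ends, read 8.49 and 8.39 in nTreg, 9.04 and 8.98 in iTreg, and 8.38 and 8.31 in ex-iTreg. In these 3 genes nTreg and ex-iTreg differed by at most 0.14, and none of those differences was called. Across the list, the median difference was 0.141 from nTreg and 0.418 from ex-iTreg. Of the 26 higher genes, 15 passed against each population separately.

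A pair of related genes outside the list ranked among the 15 set furthest above. Gbp2b, of the same GTPase family, read 10.75 in both nTreg pools, 11.75 and 11.71 in iTreg, and 10.37 and 10.31 in ex-iTreg. Ifit1bl1, a relative of Ifit1, read 8.50 and 8.46 in nTreg, 10.16 and 10.08 in iTreg, and 9.06 and 8.98 in ex-iTreg. They differed in the order of the other populations, with ex-iTreg below nTreg for Gbp2b and above it for Ifit1bl1. Because Gbp and Ifit genes have close paralogs, signal shared between family members cannot be told apart. Of the 26 list members, 14 were called lower in ex-iTreg than in nTreg and 3 higher. Among all 45 tested members, 22 were called lower and 5 higher. When nTreg and ex-iTreg formed 1 group, 3 of the 26 calls were left.

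The promoters of these 4 genes are shown because they hold the interferon-stimulated response element, the DNA element bound by the factors that interferons activate. It was searched as GAAA, any 2 bases and GAAA again, on both strands of windows from 250 bases before to 50 after each RefSeq gene start (mouse build GRCm38.p6). Of the 26 set-apart list members, 20 had a window, and 9 of these (45%) held a match. Matches were found in 3.44% of all 32851 windows and 3.71% of tested genes. The share was 4.74% of all genes set apart higher and 4.57% of those set apart lower. The list was chosen for response to interferon, and its members that were not set apart were not counted. The 45% therefore describes the list and does not bear on being set apart. The last 150 bases before the start are given 5′ to 3′ on the gene's strand, with the match in capitals; the reverse of the element reads TTTC, 2 bases, TTTC. Where a gene has several listed starts, the first with a match is shown.
Gbp2b, chr3:142594697-142594846, + strand: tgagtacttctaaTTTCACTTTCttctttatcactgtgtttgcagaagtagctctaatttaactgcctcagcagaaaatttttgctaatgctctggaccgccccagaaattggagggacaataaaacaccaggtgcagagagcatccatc
Gbp2, chr3:142620513-142620662, + strand: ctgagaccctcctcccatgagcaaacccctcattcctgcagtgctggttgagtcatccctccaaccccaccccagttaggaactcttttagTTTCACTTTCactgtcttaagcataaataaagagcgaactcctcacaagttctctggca
Ifit1, chr19:34640739-34640888, + strand: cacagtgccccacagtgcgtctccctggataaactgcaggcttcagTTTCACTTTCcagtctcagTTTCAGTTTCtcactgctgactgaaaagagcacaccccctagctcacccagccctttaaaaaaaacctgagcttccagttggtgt
Ifit1bl1, chr19:34601969-34602118, - strand: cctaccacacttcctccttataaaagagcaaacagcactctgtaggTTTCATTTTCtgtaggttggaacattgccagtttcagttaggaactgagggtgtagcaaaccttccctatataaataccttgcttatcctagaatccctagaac

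The match begins 137 bases before the start in Gbp2b, 59 in Gbp2, 104 in Ifit1bl1, and 104 and 85 in Ifit1, which has 2 copies. Such a match is a description of letters and not of binding. GAS, the element of the STAT factors, searched as TTCNNNGAA, was found in 6 of the same 20 genes (30%). It was found in 8.18% of tested genes and in 8.3% of all windows. For every motif, a gene was counted when any of its windows held a match. The GAS share among all genes set apart higher was 9.02%. Here too, list members that were not set apart were not counted, so the 30% does not bear on being set apart.

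**Figure D3:**
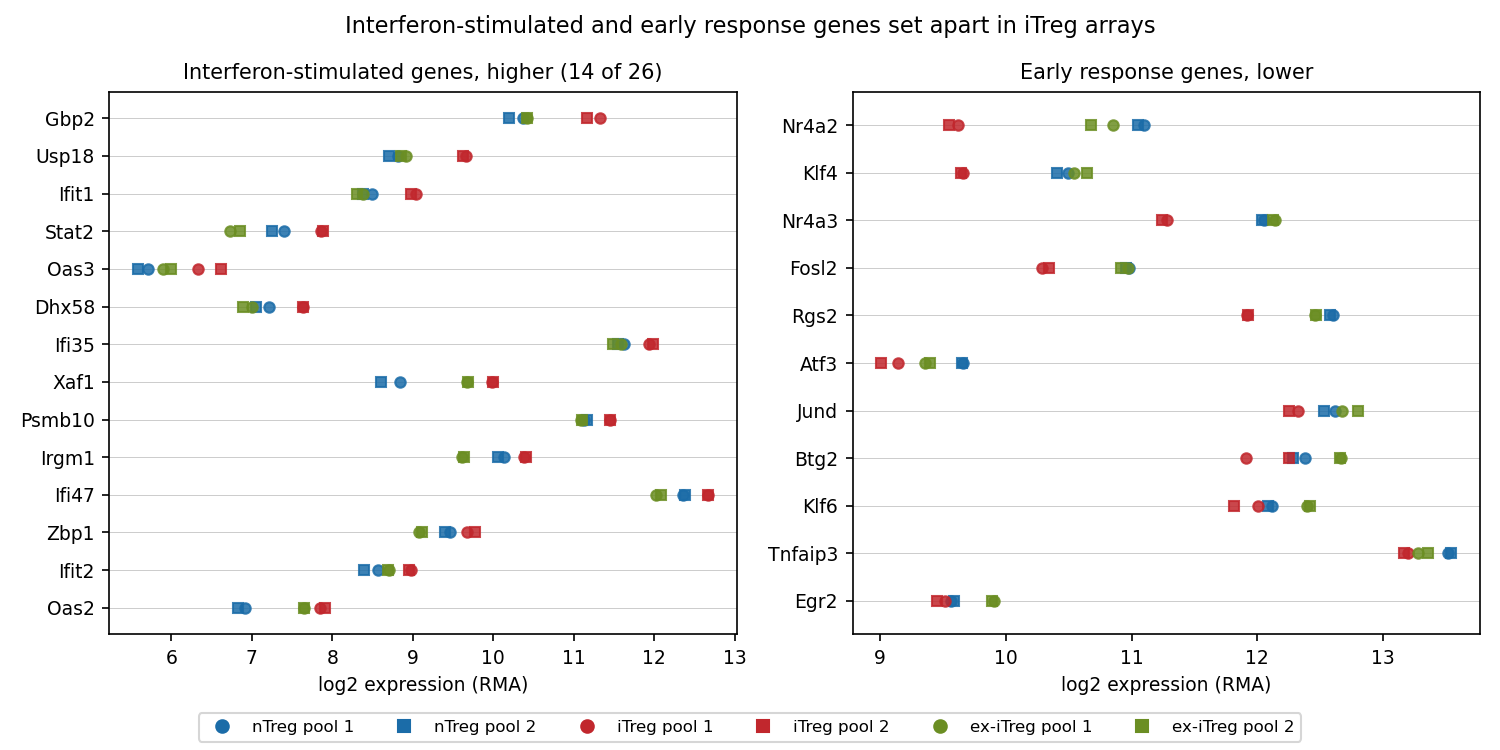
Log2 expression (RMA, horizontal axis) in each array, coloured by population and shaped by pool, for the 14 interferon-stimulated genes with the largest smaller difference (left) and the 11 early response genes set apart lower (right). For Gbp2, Usp18 and Ifit1 the nTreg and ex-iTreg points lie together below iTreg; for Nr4a3, Klf4 and Fosl2 they lie together above it.

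Early response genes, which antigen receptor and stress signals induce within a short time, were set apart lower in 11 of 37 tested (29.7%) and higher in 2 (5.41%). The list's median difference was only -0.10. Nr4a2 is described above, and Nr4a3, of the same nuclear receptor family, read 12.06 and 12.04 in nTreg, 11.28 and 11.24 in iTreg, and 12.14 and 12.12 in ex-iTreg. Klf4, a Kruppel-like factor of quiescent lymphocytes, read 10.50 and 10.41 in nTreg, 9.66 and 9.64 in iTreg, and 10.54 and 10.64 in ex-iTreg. In Klf4 and Nr4a3 the difference between nTreg and ex-iTreg was not called. The second probe set of Nr4a3, which read 5.75 to 6.22 in all arrays, was not set apart. Against this direction, Zfp36, which destabilises cytokine messenger RNAs, read 11.03 and 11.04 in nTreg, 11.60 and 11.62 in iTreg, and 10.19 and 10.26 in ex-iTreg, and Myc read 9.34 and 9.08 in nTreg, 9.68 and 9.85 in iTreg, and 9.27 and 9.23 in ex-iTreg. Of the 11 lower calls, 5 were left when nTreg and ex-iTreg formed 1 group, 7 without iTreg pool 2 and 7 with arrays centred on T cell receptor genes; the 2 higher calls became 1 without iTreg pool 2.

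The cyclic AMP response element, the site of CREB factors that many early genes carry, was searched as TGACGTCA, a palindrome, in the same windows. It was found in 51 of 809 genes set apart lower (6.3%), in 37 of 1286 set apart higher (2.88%), in 3.66% of tested genes and in 1.79% of all windows. Among the 11 early response genes set apart lower, 1 held it. The promoter of Dtl is shown as a case among the genes set furthest below; the element, in capitals, begins 17 bases before the start.
Dtl, chr1:191575545-191575694, - strand: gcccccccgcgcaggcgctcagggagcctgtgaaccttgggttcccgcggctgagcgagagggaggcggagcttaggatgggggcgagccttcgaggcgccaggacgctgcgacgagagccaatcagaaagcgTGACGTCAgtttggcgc

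The other motifs searched, AAAGGTCA for NR4A receptors, CCACCC for Kruppel-like factors and ACAGGAAG for ETS factors, were present in 1.85%, 37.9% and 5.07% of genes set apart lower and in 1.32%, 42.3% and 4.59% of those set apart higher. Over all tested genes the shares were 1.05%, 41.3% and 4.14%. None of the 11 early response promoters held the NR4A element, which says only that these letters are not in the window.

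Metabolic lists were higher or mixed. Lysosome and phagosome genes were set apart higher in 17 of 30 tested (56.7%) and lower in 0, with a median of 0.23; by the limma contrast alone 20 were higher and 0 lower, and at an unadjusted p, 22 and 0. Psap, a saposin precursor that is also in the macrophage list, read 10.28 and 10.16 in nTreg, 11.13 and 11.18 in iTreg, and 10.68 and 10.55 in ex-iTreg, and Lipa, the lysosomal lipase, was 0.56 ± 0.07 higher. Lysosome genes are abundant in macrophages, whose markers moved the same way, and the part of those cells in the 17 genes was not tested; 0 of the 17 limma calls were left when nTreg and ex-iTreg formed 1 group, and 6 to 10 when an iTreg or ex-iTreg pool was left out (6 and 8 without iTreg pools 1 and 2, 10 and 9 without ex-iTreg pools 1 and 2). Respiratory chain genes gave 11 of 44 higher (25%) and 0 lower, in the limma contrast as well (14 and 1 at an unadjusted p). Sizes were small: Ndufa9 and Sdhc, subunits of complexes I and II, were 0.31 ± 0.06 and 0.35 ± 0.06 higher. The other tested probe set of Sdhc was not set apart (-0.01 ± 0.12, adjusted p = 0.94).

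Cholesterol synthesis genes split, with 9 of 22 higher (40.9%) and 4 lower (18.2%). Mvd, Dhcr7 and Fdft1 were 0.55 ± 0.07, 0.56 ± 0.09 and 0.38 ± 0.06 higher, whereas Sc5d and Cyp51 were 0.59 ± 0.06 and 0.37 ± 0.06 lower on the log2 scale. These enzymes act in 1 pathway, and its members stood on both sides. The other probe sets of Sc5d and Cyp51 were not set apart and called. Glycolysis genes gave 6 of 20 higher (30%) and 2 lower (10%). Slc2a3, a high-affinity glucose transporter, read 11.53 and 11.54 in nTreg, 12.09 and 12.06 in iTreg, and 9.93 and 9.97 in ex-iTreg. Pfkp, a phosphofructokinase, was 0.38 ± 0.06 lower and did not pass against nTreg alone (adjusted p = 0.36).

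Cell cycle genes gave 4 of 40 higher (10%) and 6 lower (15%). Ccne2, the cyclin of S phase entry, read 6.28 and 6.00 in nTreg, 5.19 and 5.17 in iTreg, and 5.72 and 5.91 in ex-iTreg, and Pcna, the replication clamp, was 0.31 ± 0.06 lower. Cdc20 and Prc1, which act in mitosis and cytokinesis, were 0.29 ± 0.05 and 0.32 ± 0.06 higher. Heat shock and chaperone genes gave 3 of 25 higher (12%) and 6 lower (24%), led by Bag3 (0.32 ± 0.07) and Dnajb6 (-0.40 ± 0.05), both co-chaperones, and cytosolic ribosomal protein genes 1 of 34 higher (2.94%), Rps6, and 0 lower; the limma contrast alone called 2 and 1 of them, and an unadjusted p 4 and 1.

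Among the 6 lists of other cell types, the macrophage list was the longest and gave the most set-apart members by number, though not by share. Macrophages of spleen and lymph node engulf dying cells and secrete complement C1q. Of 76 tested members of the list, 45 (59.2%) were set apart higher and 2 (2.63%) lower, with a median difference of 0.47. C1qb, a chain of complement C1q, read 7.37 and 6.97 in nTreg, 9.15 and 9.22 in iTreg, and 7.56 and 8.03 in ex-iTreg, a difference of 1.70 ± 0.16 (adjusted p = 0.00107). C1qa, the partner chain, read 7.42 and 7.14 in nTreg, 9.0 and 8.83 in iTreg, and 7.83 and 8.0 in ex-iTreg. Both chains, like C1qc (1.19 ± 0.15), were lowest in nTreg, with ex-iTreg next and iTreg well above.

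Receptors and surface proteins of macrophages had that order too. Csf1r, the receptor on which macrophages depend, read 8.99 and 9.0 in nTreg, 10.22 and 10.20 in iTreg, and 9.53 and 9.46 in ex-iTreg. Adgre1, a surface antigen used to identify mouse macrophages, read 6.01 and 5.87 in nTreg, 7.34 and 7.47 in iTreg, and 6.34 and 6.51 in ex-iTreg. Cd5l and Aif1, further macrophage products, were 1.17 ± 0.09 and 1.10 ± 0.09 higher. Vcam1, an adhesion molecule of red pulp macrophages, read 7.72 and 7.96 in nTreg, 9.16 and 9.19 in iTreg, and 8.05 and 7.98 in ex-iTreg. For Vcam1 the difference between nTreg and ex-iTreg was not called (adjusted p = 0.19), unlike for Csf1r and Adgre1.

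Ctsl did not follow them. This lysosomal protease, which is also expressed in T cells, read 9.20 and 9.02 in nTreg, 10.14 and 10.10 in iTreg, and 7.43 and 7.58 in ex-iTreg, so that ex-iTreg was lowest by 1.61 ± 0.09 against nTreg (adjusted p = 5.16e-05). Of the 45 higher macrophage genes, 22 were called higher in ex-iTreg than in nTreg and 4 lower. The 2 lower members were Cebpa and Sirpa. Sirpa has another tested probe set that was set apart higher (0.66 ± 0.12), and the 2 probe sets disagree. With nTreg and ex-iTreg as 1 group, 9 of the 45 higher calls were left, and 25 under the stricter filter; the 2 lower calls became 0 without iTreg pool 1 or without either ex-iTreg pool, and 1 without iTreg pool 2 or nTreg pool 2.

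All 12 defining macrophage markers on the array were above the filter level in at least 1 array. Their mean log2 level was 7.12 and 7.03 in nTreg, 8.10 and 8.14 in iTreg, and 7.43 and 7.45 in ex-iTreg, and the log2 of their summed level ran from 11.41 to 11.47, from 12.41 to 12.42 and from 11.74 to 11.76. Over the 91 list members on the array, the mean log2 level was 6.92 and 6.87 in nTreg, 7.33 and 7.36 in iTreg, and 6.92 and 6.91 in ex-iTreg. The part of macrophage RNA in the T cell, interferon and lysosome results was not tested. The labels give an average sort purity of 98.96 ± 0.14% over the laboratory's sorts and no value for these pools.

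Erythroid genes were set apart higher in 21 of 39 tested (53.8%) and lower in 1 (2.56%), with a median difference of 0.32. Gata1, the erythroid lineage factor, read 6.42 and 6.39 in nTreg, 7.57 and 7.63 in iTreg, and 5.38 and 5.31 in ex-iTreg. Klf1, an erythroid Kruppel-like factor, read 5.91 and 5.98 in nTreg, 6.71 and 6.88 in iTreg, and 6.03 and 5.95 in ex-iTreg. Slc4a1, the anion exchanger of red cells, read 8.23 and 8.06 in nTreg, 8.87 and 8.76 in iTreg, and 8.18 and 7.96 in ex-iTreg. Gata1 alone of these 3 differed between nTreg and ex-iTreg, by -1.06 ± 0.06, with both ex-iTreg values under the filter level. Aqp1, Tmcc2, Ermap and Alas2, the first enzyme of haem synthesis in red cells, were 0.74 ± 0.12, 0.61 ± 0.09, 0.58 ± 0.12 and 0.43 ± 0.09 higher.

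Few erythroid members separated nTreg from ex-iTreg: of the 21 higher genes, 1 was called higher in ex-iTreg and 3 lower. The 1 lower member was Bpgm, which makes 2,3-bisphosphoglycerate. Of 10 defining erythroid markers, 5 were on the array under a single gene name, and Epb42 and Hba-a1, a globin gene, were below the filter level in all 6 arrays, Hba-a1 at 3.65 to 4.01. Their mean log2 level was 5.71 and 5.84 in nTreg, 6.14 and 6.19 in iTreg, and 5.81 and 5.76 in ex-iTreg. Probe sets for beta globin carry several gene names and are not described. The summed log2 level of the 49 list members on the array was 14.1 in both iTreg pools, against 9.52 and 9.49 for the 5 defining markers. Most of the list's signal thus came from other members. Neither its counts nor its level therefore assign the signal to erythroid cells. As 1 group of nTreg and ex-iTreg arrays, 5 of the 21 calls were left, and some calls were also lost without either iTreg pool. Under the stricter filter 11 members were set apart higher, but fewer members were tested there.

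**Figure D4:**
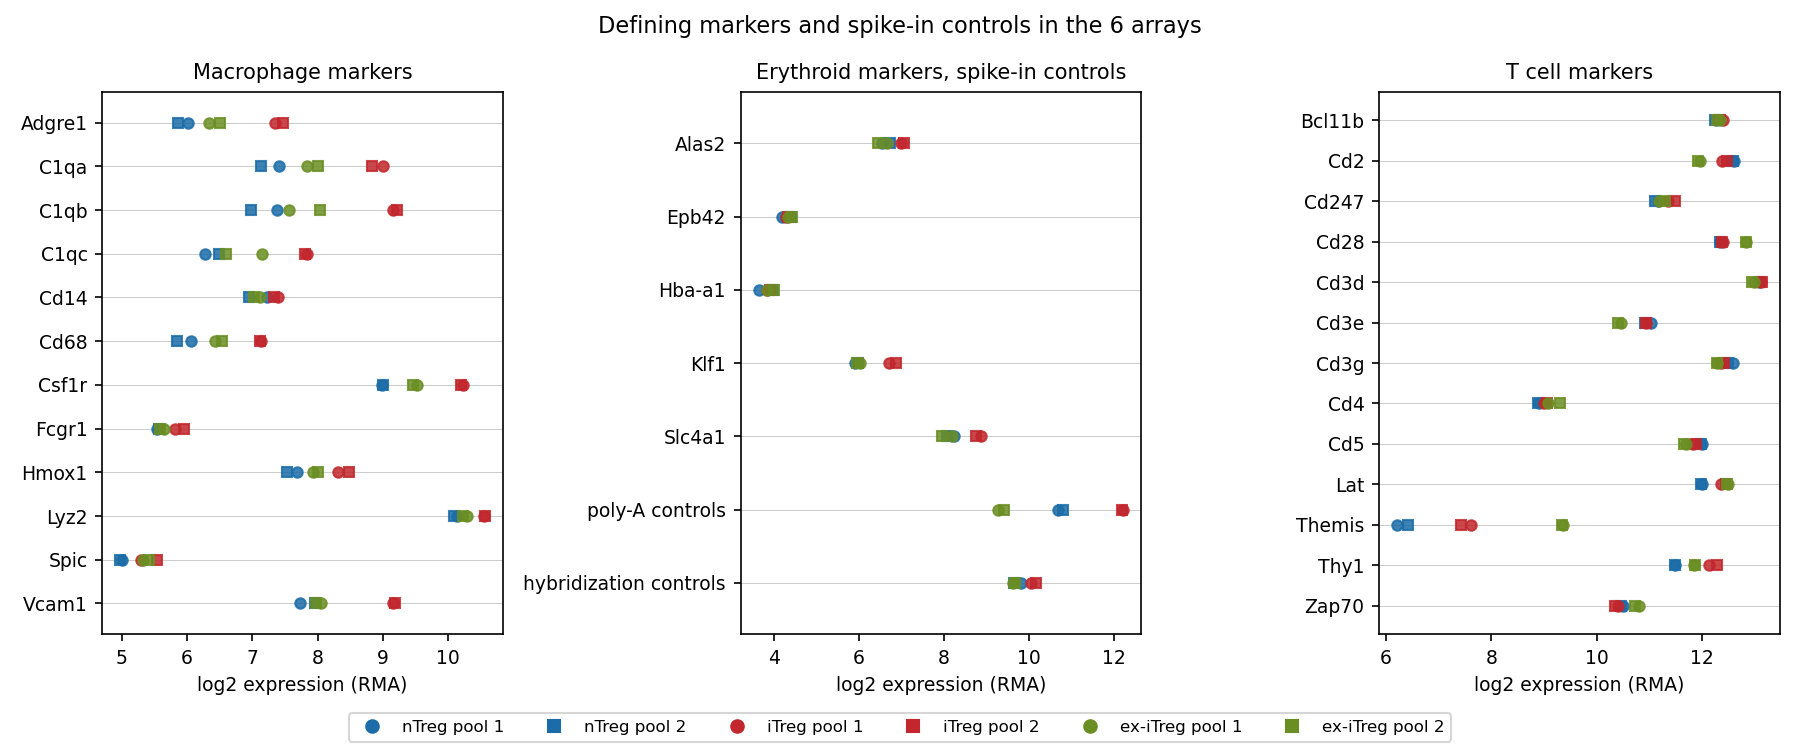
Log2 expression (RMA, horizontal axis) of defining macrophage markers (left), of defining erythroid markers and the means of 12 poly-A and 18 hybridization control probe sets (centre), and of defining T cell markers (right) in the 6 arrays, coloured by population and shaped by pool. Most macrophage markers run nTreg, ex-iTreg, iTreg; the poly-A controls run ex-iTreg, nTreg, iTreg, from 9.28 to 12.21.

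Other cell types gave smaller groups. B cell and plasma cell genes were set apart higher in 11 of 23 tested (47.8%) and lower in 0, although the hosts have no mature B cells; by the limma contrast alone 13 were higher and 1 lower (15 and 1 at an unadjusted p). With nTreg and ex-iTreg as 1 group, 2 of these 11 higher calls were left, and 1 of the 9 for neutrophil and mast cell genes. Neutrophil and mast cell genes gave 9 of 12 higher (75%) and 1 lower, dendritic cell genes 3 of 12 higher (25%) and 0 lower, and stromal and endothelial genes 0 of 9 in either direction, also by the limma contrast alone and at an unadjusted p; for dendritic cell genes the contrast alone gave 5 higher and 1 lower, and an unadjusted p 6 and 1. The summed log2 level of the B cell list was 13.96 and 13.94 in nTreg, 14.17 in both iTreg pools, and 13.51 in both ex-iTreg pools. In this list ex-iTreg read lowest. The list also holds antigen-presentation genes (MHC class II and its invariant chain), which macrophages and dendritic cells express. Neither its counts nor its level therefore assign the signal to B cells.

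Array controls also differed between populations. Poly-A controls, bacterial transcripts that monitor labelling, had a mean log2 signal of 10.67 and 10.79 in nTreg, 12.21 and 12.18 in iTreg, and 9.28 and 9.41 in ex-iTreg. Hybridization controls read 9.80 and 9.63, 10.05 and 10.16, and 9.62 and 9.66 in the same order. iTreg arrays were thus highest in both kinds of control, and the part of this difference in the set-apart genes was not tested. The 5′ probe set of Gapdh read 11.97 and 11.98 in nTreg, 11.98 and 11.82 in iTreg, and 12.13 and 12.11 in ex-iTreg, while its 3′ probe set was highest in iTreg (12.37 and 12.34). For Actb, the 5′ probe set read 14.00 and 13.99 in nTreg, 13.81 and 13.82 in iTreg, and 13.85 in both ex-iTreg pools. Its 3′ probe set read 14.39 in both nTreg pools, 14.34 and 14.31 in iTreg, and 14.22 and 14.21 in ex-iTreg. In both genes the 3′ signal exceeded the 5′ signal most in iTreg. The part of this in the set-apart genes was not tested.

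The difference of ex-iTreg from nTreg does not enter the contrast of the rule, but the pattern limits how far these populations can differ, so its counts among set-apart genes are a description. Over all genes, 2025 (18.4%) were called higher in ex-iTreg and 2097 (19%) lower. Among the 1566 genes set apart higher, 211 were called higher in ex-iTreg, 344 lower, and 1011 were not called. Among the 1016 set apart lower, 251 were called higher, 159 lower, and 606 not. The gene groups differed in this order: macrophage and naive genes had more members with ex-iTreg above nTreg (22 against 4, and 11 against 2), and interferon-stimulated and lysosome genes more with ex-iTreg below (14 against 3, and 6 against 2). Over all tested members, ex-iTreg was called above nTreg in 26 macrophage and 30 naive genes, and below in 15 and 5. For interferon-stimulated and lysosome genes it was called below in 22 and 12, and above in 5 and 3. The difference between these groups was not tested.

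**Figure D5:**
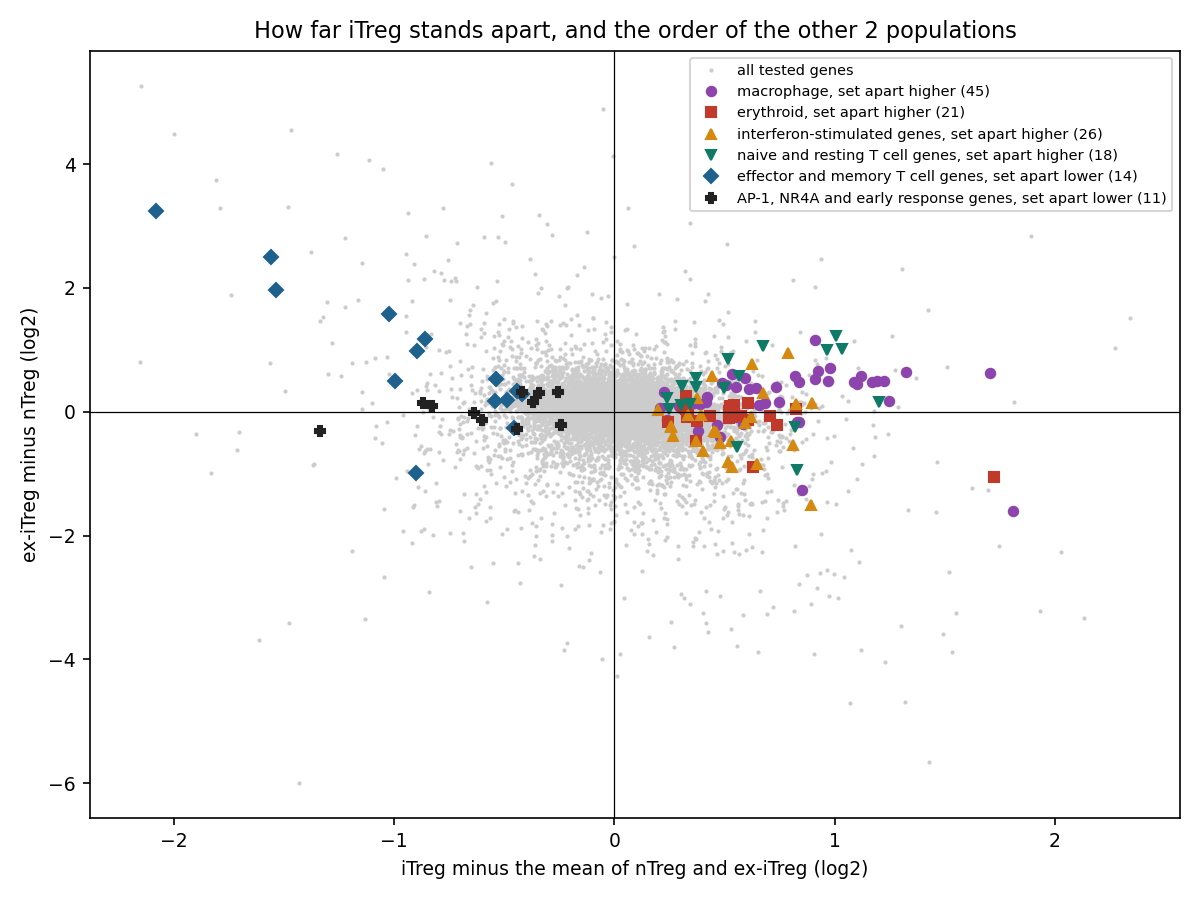
Each grey point is 1 of 11019 tested genes, by the difference of iTreg from the mean of nTreg and ex-iTreg (horizontal, log2) and of ex-iTreg from nTreg (vertical, log2); coloured symbols are the set-apart members of 6 lists, with their number. Macrophage symbols lie mostly above the horizontal line and interferon symbols mostly below it, with Ctsl and Gata1 as far-right points near -1.61 and -1.06.

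Against each population alone, iTreg was higher than nTreg for 1808 genes (16.4%) and lower for 1398 (12.7%), and higher than ex-iTreg for 2315 (21%) and lower for 1716 (15.6%); these comparisons share the iTreg arrays. Of 142 named set-apart genes, 71 had another tested probe set. In 39 of them all other probe sets were set apart in the same direction, and in 16 none was. Sirpa and Hspa4, a chaperone, had a probe set called in the opposite direction. Of the 142, 35 lost their call under none of the alternatives in which they were tested (13 to 15 of 15), among them Sh3bgrl2, Tgm2, Ifit1bl1, Gbp2b, Gbp2, Usp18, Ifit1, C1qb, Vcam1, Klf1, Nsg2, Hey1, Dtl, Epas1, Nr4a2, Nr4a3, Klf4 and Cd44.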

How the data were processed

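RNA from 6 pools of sorted T cells was hybridised to Affymetrix Mouse430_2 arrays. Per the submitters' processing notes, the authors used RMA for the deposited log2 values, 1 per probe set and array; its software is not given in the sources used. Of 45101 probe sets, 64 were controls; of the other 45037, the platform annotation named 34945 with 1 gene symbol, 932 with several and 9160 with none. RefSeq matched 34741 by Entrez identifier and changed 0 symbols. Testing covered the 23484 probe sets that exceeded 5.48, the overall median, in 2 or more arrays, and each gene was read from its brightest tested probe set by mean.

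limma 3.58.1 in R 4.3.3 (lmFit, eBayes) fitted 1 mean per group over all 6 arrays, with 3 residual and 3.37 prior degrees of freedom, and adjusted p-values by Benjamini-Hochberg over the 23484 probe sets. The contrast was iTreg minus the mean of nTreg and ex-iTreg; both pairwise contrasts, and ex-iTreg minus nTreg, which was added later, came from the same fit. Of the higher genes, 25 passed the filter only through the iTreg arrays. In simulated data with 23484 probe sets, the contrast recovered 91% of 1.5-fold and 100% of 2-fold and 4-fold changes. There were 12 false among 206 calls, and 9 false among 197 set-apart calls. Unchanged probe sets were simulated with iTreg midway between nTreg and ex-iTreg. The false counts therefore do not cover genes in which iTreg equals either population while the other differs. The number of arrays limits the precision.

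Named genes were the 15 set furthest apart in each direction by the smaller of the pairwise differences, outside lists of other cell types and passing over Riken, Gm and clone names and immunoglobulin genes. To these came up to 8 macrophage and 6 erythroid genes, up to 5 of each T cell list and 3 of each function list in each direction, and 12 fixed genes. The genes at the edge of the pattern were added after their values were seen. Members and the 24 gene lists (986 genes) were chosen with earlier results of these data known, so the lists' counts are descriptions and no set test was run. RefSeq promoter windows were found for 8929 tested genes. Pool numbers did not pair the samples (correlations of deviations -0.007, -0.088 and -0.04). The alternatives were the filter, renormalization, centring on T cell receptor genes, a trended robust prior, nTreg and ex-iTreg as 1 group, a replicate block, a mean over probe sets, each pool left out, and, chosen after seeing the data, probe sets with possible cross-hybridization left out. Naive conventional T cells were not analysed here.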

Additional observations from a re-analysis of the deposited data

How the results depend on the processing

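With nTreg and ex-iTreg as 1 group, the contrast alone and the contrast with the pattern both gave 117 higher and 65 lower genes. The difference between those populations then enters the spread, and 106 of the 142 named set-apart genes lost their call. Centring on T cell receptor genes gave 918 lower genes by the contrast and 591 set apart lower, and moved the median of all genes from 0.03 to 0.08. Genes called against each population numbered 412 higher and 248 lower without the filter, 246 lower after that centring, and 741 lower with the trended robust prior. Leaving out 1 pool gave 795 to 2029 higher and 564 to 1372 lower genes by the contrast, 673 to 1667 higher and 444 to 1066 lower set apart, and 299 to 635 higher and 179 to 385 lower called against each population, the lowest always without iTreg pool 2. A lone pool is then assumed to vary like the other groups. The mean over a gene's probe sets reversed Sirpa (0.217) and Hspa4 (0.009), whose probe sets disagree. With pool number as a replicate block, 1344 genes were set apart higher and 848 lower, the contrast gave 1692 and 1152, and 583 and 366 passed against each population; 3 named genes lost their call. All other counts of these 6 results stayed within 1.5 times under the remaining alternatives. Dim probe sets limit what can be said of genes near 5.48.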
